A study of Mus musculus with 12 samples.

Results

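The heavy chain of a mouse antibody is built from a variable (V) segment, a diversity (D) segment and a joining (J) segment that are spliced together in the DNA of each developing B cell, and the V segments carry the gene names Ighv. The 113 genes described here are all genes of the count table whose symbol in the GENCODE M21 annotation starts with Ighv and whose annotated type is IG_V_gene, out of 54109 gene identifiers in the table. The annotation also has 70 Ighv pseudogenes and 2 IG_LV_gene entries, which were left out. The study compared Gpr15l-/- mice (Gpr15l KO) with wild-type (WT) mice, and all 12 mRNA libraries came from animals with acute colitis from dextran sulfate sodium (DSS), an agent that damages the gut epithelium when drunk. From each genotype there were 3 libraries of full colon tissue and 3 of lamina propria mononuclear cells (LPMC), the cells released from the connective tissue layer under the gut epithelium. No library came from untreated mice, so every value belongs to an inflamed gut. The allele used, the strain, the age of the mice and whether each library is a separate animal are not stated in the labels. A p-value here sets a difference against library-to-library spread, part or all of which could be technical.

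Recombination picks 1 V segment per heavy chain allele, and a B cell then makes RNA of that segment joined to a constant gene that sets the antibody class (Ighm and Ighd in naive B cells, Igha after switching to IgA, the main class of the gut). Plasma cells, the antibody-secreting end stage of the B lineage, hold far more of this RNA than resting B cells, so in bulk tissue a few expanded plasma cell clones can supply much of the V reads. Gpr15l encodes a ligand of the receptor Gpr15, which guides lymphocytes to the colon. In these bulk libraries, fewer cells of the B lineage and less immunoglobulin RNA per cell cannot be told apart.

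All 113 segments lie on the minus strand of chromosome 12 of GRCm38 between positions 113578504 and 116000461, a stretch of 2.42 Mb, and the segment with the lowest coordinate is the nearest to the D segments. They fall into 16 families by the first number of the name, and 53 of them belong to Ighv1. The exons of a segment, leader included, add up to a median of 353 bases (294 to 480). The 3′ end of the V exon codes for the last stretch of the framework up to the conserved cysteine that opens CDR3, the loop that contributes most to antigen contact. The last 120 exonic bases of 8 segments on which the results below turn are shown here 5′ to 3′ in the sense of transcription, from the GENCODE M21 transcripts, with the letters TGTGCAAGA (the cysteine codon and the next 2 codons) in capitals where they end or nearly end the segment.
Ighv1-26, chr12:114788372-114788491, minus strand: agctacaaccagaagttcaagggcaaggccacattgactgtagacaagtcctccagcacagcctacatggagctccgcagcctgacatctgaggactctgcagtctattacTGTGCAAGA
Ighv1-53, chr12:115158403-115158522, minus strand: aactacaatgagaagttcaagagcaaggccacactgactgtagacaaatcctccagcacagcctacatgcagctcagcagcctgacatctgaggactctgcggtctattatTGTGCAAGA
Ighv1-64, chr12:115507545-115507664, minus strand: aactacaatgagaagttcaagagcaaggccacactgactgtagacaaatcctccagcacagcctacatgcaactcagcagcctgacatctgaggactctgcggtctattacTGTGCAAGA
Ighv1-49, chr12:115055223-115055342, minus strand: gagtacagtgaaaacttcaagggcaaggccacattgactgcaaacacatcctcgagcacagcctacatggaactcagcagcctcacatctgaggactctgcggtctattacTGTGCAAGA
Ighv3-6, chr12:114288152-114288271, minus strand: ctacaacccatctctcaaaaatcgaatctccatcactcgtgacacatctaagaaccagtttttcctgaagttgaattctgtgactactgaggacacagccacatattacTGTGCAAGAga
Ighv4-1, chr12:113948282-113948401, minus strand: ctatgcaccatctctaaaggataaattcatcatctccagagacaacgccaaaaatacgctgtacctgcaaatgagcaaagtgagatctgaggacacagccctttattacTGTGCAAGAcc
Ighv5-6, chr12:113625506-113625625, minus strand: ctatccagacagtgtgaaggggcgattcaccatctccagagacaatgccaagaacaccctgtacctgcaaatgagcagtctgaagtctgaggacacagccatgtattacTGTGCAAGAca
Ighv6-3, chr12:114391712-114391831, minus strand: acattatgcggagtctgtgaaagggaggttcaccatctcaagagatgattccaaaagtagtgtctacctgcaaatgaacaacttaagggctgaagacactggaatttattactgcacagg

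The letters TGTGCAAGA, searched on the transcribed strand only, were found in the last 40 bases of 63 of the 113 segments (55.8%), against 0.0932% of all 141704 annotated transcripts of at least that length. Among the 8 segments printed, Ighv6-3 lacks them. Over the last 200 bases, Ighv1-53 and Ighv1-64 were 95.5% identical, and Ighv1-26 was 90.5% identical to Ighv1-53 and 62.6% identical to Ighv3-6. Across all pairs of segments the median identity was 85.0% within a family and 59.8% between families. Likeness of this degree limits how well short reads can be assigned to a segment, which the next pair shows: in the last 120 bases Ighv1-72 and Ighv1-62-3 differ at 1 base, here in capitals.
Ighv1-72, chr12:115757984-115758103, minus strand: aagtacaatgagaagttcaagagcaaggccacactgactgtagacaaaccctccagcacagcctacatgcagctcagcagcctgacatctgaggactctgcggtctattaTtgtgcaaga
Ighv1-62-3, chr12:115460999-115461118, minus strand: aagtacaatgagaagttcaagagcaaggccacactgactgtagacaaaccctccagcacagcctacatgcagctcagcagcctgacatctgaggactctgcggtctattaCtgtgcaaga

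Of the overlapping 50-base words of a segment, a median of 78.8% occurred in the transcripts of no other gene. In 15 segments under 50% of the words were unique, and Ighv1-62-2 (8.21%) and Ighv1-71 (2.58%) had almost no word of their own, so their split of 800 and 4886 counts cannot be relied on. Ighv1-72 had 7.49% unique words and 29491 counts, against 30.6% and 89 counts for Ighv1-62-3. Among the segments named most often below, Ighv1-53 (42.4% unique words) and Ighv1-26 (51.0%) are uncertain in this sense, while Ighv3-6 (96.7%) and Ighv1-49 (100%) are not.

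The libraries held 45.4 to 140.7 M counts (M for 1e6). The deleted gene, annotated as 2610528A11Rik, had 292 to 970 CPM (counts per 1e6 counts of the library, scaled by TMM factors) in the 6 WT libraries and 0.0291 to 0.228 CPM in the 6 KO libraries, so every library matched its genotype label. The LPMC libraries also held epithelial RNA: the 6 epithelial markers examined summed to 6510 to 9243 CPM there, against 10767 to 20726 CPM in colon, and Epcam, which defines epithelium, was at 964 to 1409 CPM in LPMC. A pair of libraries stood apart in their B lineage markers. In colon WT 1, the 12 B cell markers summed to 1285 CPM where the remaining 5 had 3.74 to 33.0 CPM. In LPMC KO 1, the same list summed to 480 CPM (79.3 to 371 in the other LPMC libraries), while the 10 plasma cell markers summed to 977 CPM, the lowest of the LPMC libraries (1582 to 3624 in the others). Most of that sum came from Xbp1 (341 CPM), Sdc1 (251) and Jchain (249), and Sdc1 was also at 148 to 300 CPM in full colon. These and Tnfrsf17 and Derl3 were lowest in LPMC KO 1 among LPMC libraries, while Irf4, Pou2af1, Prdm1, Mzb1 and Tnfrsf13b were not. The list thus did not move as a whole.

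Heavy chain V reads differed by orders of magnitude between tissues and by several fold between libraries of one group. The 113 segments together had 7293, 733 and 1846 counts in the colon WT libraries 1 to 3, and 2436, 228 and 3655 in the colon KO libraries. In LPMC they had 481221, 432639 and 90343 counts in WT and 84653, 119218 and 359256 in KO. As summed CPM these were 88.0, 17.0 and 26.5 in colon WT, 26.2, 3.72 and 24.5 in colon KO, 4589, 4363 and 1763 in LPMC WT and 616, 1448 and 4727 in LPMC KO. The highest colon value was that of colon WT 1, the library rich in B cell markers, and the lowest was that of colon KO 2. In each tissue the KO values overlapped the WT values. On the log2 scale the mean was 5.09 ± 1.23 (SD, n = 3) in colon WT and 3.74 ± 1.60 (SD, n = 3) in colon KO, a difference of -1.35 (exact two-sided permutation p = 0.4, with 0.1 the smallest p that 3 against 3 allows). Without colon WT 1 the difference was -0.67, and without colon KO 2 it was -0.43. In LPMC the means were 11.68 ± 0.78 and 10.66 ± 1.48 (SD, n = 3 each), a difference of -1.02 (exact permutation p = 0.4), which was -0.33 without LPMC KO 1. In both tissues the difference by genotype was smaller in size than the SD of the KO libraries and larger than that of the WT libraries.

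The V reads per read of the 8 heavy chain constant genes were steadier than the totals, at 0.240 to 0.274 in the 6 LPMC libraries and 0.0620 to 0.175 in colon. Igha supplied 98.4 to 99.0% of constant gene reads in LPMC except in LPMC KO 1 (81.4%), and 89.9 to 97.3% in colon except in colon WT 1 (48.1%). In colon WT 1 the naive classes Ighm and Ighd together made up 49.9% of constant reads, and in LPMC KO 1 they made up 11.6%. The segment values of these libraries thus describe RNA of another mixture of antibody classes than in the remaining libraries. How far that moved the segment values was not tested.

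**Figure D1:**
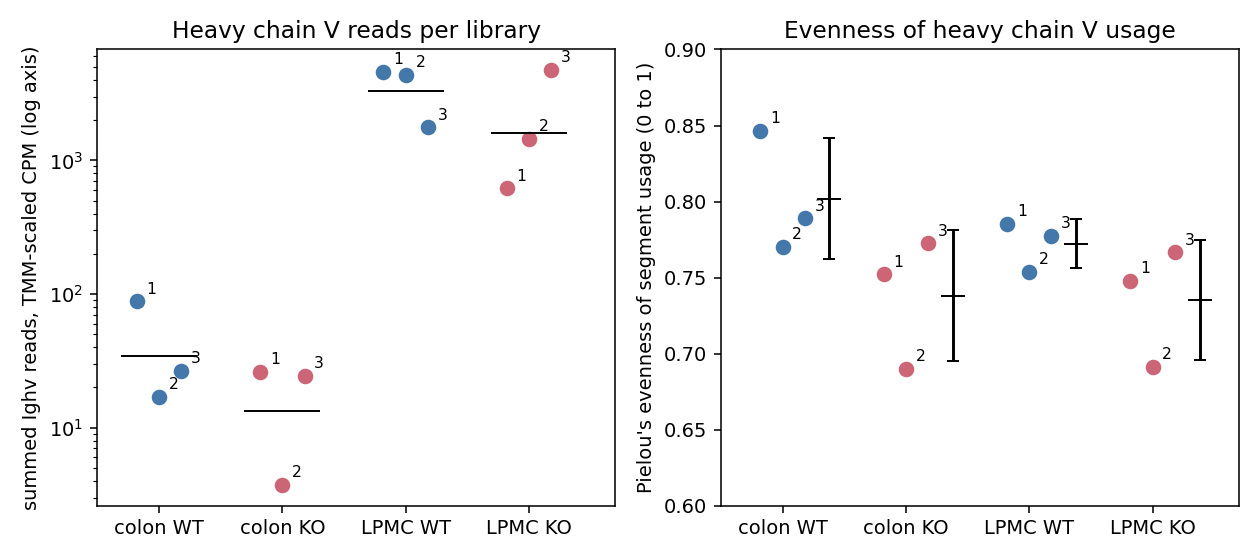
Summed heavy chain V reads (left, TMM-scaled CPM on a log axis, lines at the mean of log values) and Pielou's evenness of segment usage (right, 0 to 1, axis cut to 0.60 to 0.90; cross bars are the mean and SD of 3 libraries) for each library, numbered by replicate. LPMC libraries lie between 616 and 4727 CPM and colon libraries between 3.72 and 88.0, while the evenness of the groups overlaps.

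LPMC libraries held more of nearly every segment than colon. By edgeR's quasi-likelihood test with Benjamini-Hochberg adjustment, 93 of the 94 segments tested were higher in LPMC at an adjusted p under 0.05 and 0 were lower, where 25.4% of all 20989 genes tested were called higher and 24.9% lower. At an unadjusted p under 0.05, 0 segments were lower (28.2% of all genes). DESeq2 called 0 of 111 lower (17.8% of all genes), with 22 of the 111 left without an adjusted p. The remaining tested segment, Ighv1-43, had a log2 difference of 5.71 (SE 2.32, edgeR adjusted p = 0.0689). The median log2 difference of the 94 segments was 6.34, against 0.01 over all genes. The other 19 segments did not pass the filter on low counts, and the filter favours segments that are high in LPMC. In 53 of the 94 segments every LPMC library lay above every colon library, against 14.5% of all genes tested.

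The segment with the lowest p in that comparison was Ighv3-6, a member of a small family of 6 genes. It was at 2.56, 0.813 and 1.19 CPM in colon WT, at 0.388, 0.147 and 1.01 in colon KO, at 222, 331 and 56.6 in LPMC WT and at 31.5, 122 and 94.4 in LPMC KO. The lowest LPMC library thus stood above the highest colon library, and the log2 difference was 7.14 (SE 0.68, edgeR adjusted p = 2.53e-05). The next by p were Ighv5-17 (5.78), Ighv1-64 (6.82), Ighv6-3 (7.91), Ighv2-9-1 (7.35), Ighv2-2 (6.52), Ighv1-82 (6.54), Ighv1-42 (8.01), Ighv7-3 (6.75) and Ighv1-66 (6.40), all in log2 units, all without overlap between tissues and with edgeR adjusted p from 3.27e-05 to 0.000161. These 10 segments come from 6 families. The J chain gene Jchain, which links IgA into dimers, was higher by 5.95 (SE 0.67, edgeR adjusted p = 6.92e-05), Igha by 5.72 (SE 0.63) and the kappa light chain constant gene Igkc by 5.27 (SE 0.67). All 3 values were below the median of 6.34 of the segments that passed the filter. Of those 94 segments, 49 were too low to be tested in colon alone. Their selection through LPMC raises that median, so no difference is read from this order.

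Usage was then expressed as the share of each segment in the length-scaled V reads of its library (counts per kb of exon), which allows segments to be compared within a library. Ighv1-26 had the highest share in 10 of the 12 libraries. Its share was 7.09, 13.4 and 10.5% in colon WT, 8.85, 12.8 and 13.0% in colon KO, 9.40, 11.5 and 5.49% in LPMC WT and 2.87, 15.1 and 9.79% in LPMC KO. The low values were those of LPMC KO 1 and LPMC WT 3, in which Ighv4-1 (10.7%) and Ighv1-74 (9.25%) led. The mean share of Ighv1-26 was 10.9 ± 2.57% (SD, n = 6) in colon and 9.02 ± 4.33% in LPMC (SD, n = 6). In colon it was followed by Ighv1-53 (5.0 ± 2.24%), Ighv3-6 (3.80 ± 1.29%), Ighv1-39 (3.60 ± 1.89%) and Ighv5-17 (3.56 ± 1.51%), which did not differ from each other beyond their spread. In LPMC the order was Ighv3-6 (5.47 ± 2.59%), Ighv1-53 (4.99 ± 3.97%), Ighv1-64 (3.50 ± 2.84%) and Ighv6-3 (3.47 ± 2.53%), likewise within their spread.

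Below Ighv1-26, the leading segments were mostly those of single libraries. A share above 5% was reached by 23 segments in at least 1 library, and 13 of these reached it in exactly 1. Within LPMC, 19 segments passed 5% in at least 1 of the 6 libraries, 15 of them in exactly 1, and Ighv1-26 was the sole segment above 5% in at least 5. Ighv1-58 (5.57%) and Ighv1-22 (5.46%) followed Ighv1-26 in colon WT 1, where Ighv1-58 was at most 2.49% in the other libraries. Ighv3-8 was among the leading 3 in LPMC WT 1 at 5.60% and at most 0.760% in the other LPMC libraries. Ighv1-77 came next after Ighv1-26 in LPMC KO 3 at 6.10% and at 0.00917% in LPMC KO 2. Among 77 segments with a mean LPMC share above 0.1% and reads in all 6 LPMC libraries, the highest share was a median of 22.5-fold the lowest. Each LPMC library held at least 84653 V counts.

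**Figure D2:**
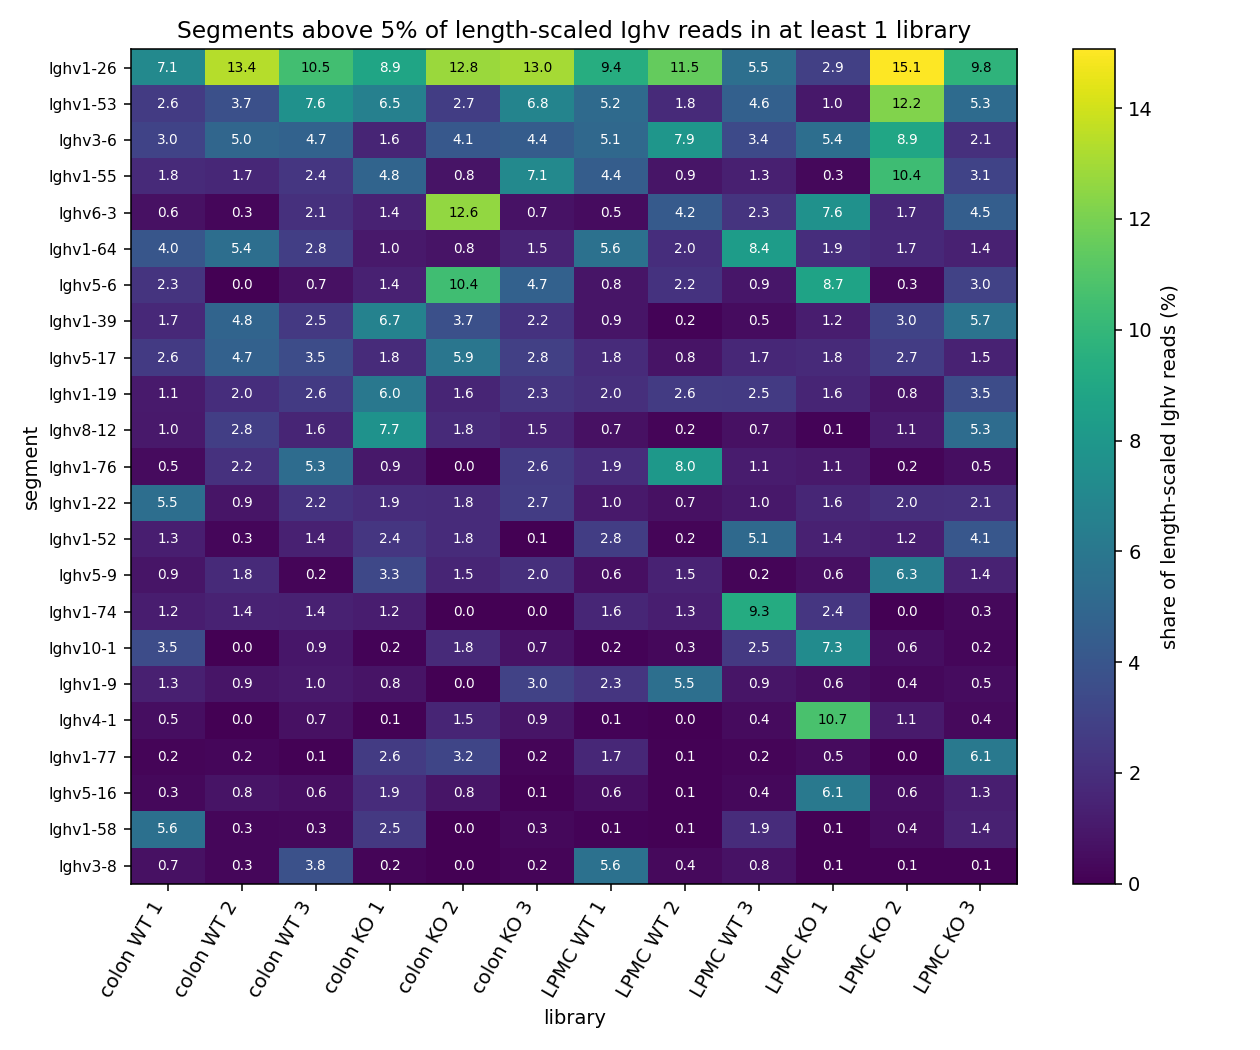
Share of length-scaled heavy chain V reads (%, colour and printed value) for the 23 segments above 5% in at least 1 library, by segment (rows) and library (columns). Ighv1-26 is high in most columns, while bright cells in other rows, such as Ighv4-1 in LPMC KO 1 (10.7%) or Ighv6-3 in colon KO 2 (12.6%), stand mostly alone.

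Detection in colon broadly rose with the number of V counts, though not in strict order, and did not follow the total counts of the library. Reads were found for 100, 63 and 74 segments in colon WT, 67, 42 and 75 in colon KO, 103, 102 and 96 in LPMC WT and 99, 94 and 101 in LPMC KO. All 12 libraries had reads of 33 segments, all 6 LPMC libraries had reads of 88, and Ighv2-7 and Ighv1-16 had no read in any library. In colon KO 2 with its 228 counts, a segment without a read could still hold up to 1.32% of V reads (3 counts of the total, counting error only), a limit that was 0.0411 to 0.409% in the other colon libraries and at most 0.00354% in LPMC. These limits take counts as independent and are too low where mates of a pair were counted as 2 reads. Thinned to 228 counts per library, colon WT 1 kept a mean of 63.3 segments, against 51.9 and 53.5 in colon WT 2 and 3, 46.2, 42.0 and 51.3 in colon KO, and 44.1 to 50.7 in LPMC. These means were lower in each colon KO library than in each colon WT library, but colon KO 3 (51.3) and colon WT 2 (51.9) were nearly equal. The spread over draws was not examined. Counts were drawn singly, and colon KO 2 was itself not thinned. Where mates of a pair were counted as 2 reads, equal counts are therefore not equal numbers of read pairs.

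Evenness was measured as Pielou's index, the Shannon entropy of the shares divided by its maximum for 113 segments, which is 1 when all segments are used alike. It was 0.846, 0.770 and 0.789 in colon WT, 0.752, 0.690 and 0.772 in colon KO, 0.785, 0.754 and 0.778 in LPMC WT and 0.748, 0.691 and 0.767 in LPMC KO. In both tissues the mean was lower in KO, with overlapping groups at full depth. In colon it was 0.802 ± 0.0397 in WT and 0.738 ± 0.0429 in KO (SD, n = 3 each), a difference of -0.0636 (exact two-sided permutation p = 0.2). In LPMC it was 0.772 ± 0.0163 in WT and 0.735 ± 0.0392 in KO (SD, n = 3 each), a difference of -0.0370 (exact permutation p = 0.2). Neither test could have reached a p under 0.1. Thinned to 228 counts per library, evenness was 0.801, 0.748 and 0.757 in colon WT and 0.722, 0.690 and 0.736 in colon KO, so that the colon groups no longer overlapped, with or without colon WT 1 (difference -0.0523, exact permutation p = 0.1, the smallest possible). In LPMC the thinned groups still overlapped (difference -0.0382, exact permutation p = 0.2). The limit of thinning given above, that equal counts need not be equal numbers of read pairs, holds for these values too. Without colon WT 1 the colon difference was -0.0414, and without LPMC KO 1 the LPMC difference was -0.0434. The LPMC difference was most reduced, to -0.0150, without LPMC KO 2, the least even LPMC library. Between tissues, evenness was 0.770 ± 0.0508 in colon and 0.754 ± 0.0337 in LPMC (SD, n = 6 each), a difference of -0.0162 (exact permutation within genotype p = 0.4), which was -0.000943 without colon WT 1.

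Put as numbers of segments, the index equals the usage of 54.6, 38.1 and 41.7 equally used segments in colon WT, 35.0, 26.1 and 38.5 in colon KO, 41.0, 35.3 and 39.5 in LPMC WT and 34.3, 26.3 and 37.5 in LPMC KO. The fewest segments that together made up 50% of V reads were 5 in LPMC KO 2 and the most were 14 in colon WT 1. In LPMC KO 2, Ighv1-26 (15.1%), Ighv1-53 (12.2%) and Ighv1-55 (10.4%) alone made up 37.7%. In colon KO 2, Ighv1-26 (12.8%), Ighv6-3 (12.6%) and Ighv5-6 (10.4%) made up 35.8%, from 28, 28 and 23 counts. The other 10 libraries had 18.1 to 27.5% in their leading 3 segments.

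In full colon, the KO to WT comparison gave negative values for most segments and none that passed adjustment. By edgeR's quasi-likelihood test, 0 of the 45 segments tested were called at an adjusted p under 0.05, with 0.00518% of all 19303 genes tested called. DESeq2, with no filter on low counts before the fit, called 0 of 101 (0.0562% of all genes). Its own filtering left 20 of these 101 without an adjusted p, so they could not be called. The median log2 fold change was -1.21, against 0.01 over all genes, with 40 values below 0 (49.5% of all genes) and 5 above. At an unadjusted p under 0.05 there were 8 segments lower in KO (4.47% of all genes tested) and 0 higher (3.32%). In 7 segments all KO libraries lay below all WT libraries (7.14% of all genes), and in 0 above (7.36%). These values depended on single libraries. Without colon WT 1 the median was -0.23, with 2 of 44 segments lower at an unadjusted p under 0.05 (5.63% of all genes). Without colon KO 3 there were 19 of 56 (1.65% of all genes). The 68 segments not tested had too few reads in colon.

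Fold changes of single segments are of CPM, which is scaled to the whole library. They include the difference in total V reads (log2 -1.35 in colon and -1.02 in LPMC) and are not changes in share. Ighv1-80 had the lowest p in colon, with 1.88, 0.372 and 0.387 CPM in WT against 0.172, 0.0979 and 0.107 in KO. The groups did not overlap, and the log2 fold change was -2.82 (SE 0.78, edgeR adjusted p = 0.632). Ighv1-75 was at 0.604, 0.325 and 0.774 CPM in WT and 0.194, 0.163 and 0.241 in KO, a log2 fold change of -1.51 (SE 0.48, edgeR adjusted p = 0.632). As shares of V counts, both segments overlapped between genotypes. In colon KO 2, Ighv1-80 had 6 and Ighv1-75 had 10 of 228 V counts, against 16 and 14 of 733 in colon WT 2. Ighv1-64 was at 3.94, 1.02 and 0.817 CPM in WT and 0.302, 0.0326 and 0.408 in KO, a log2 fold change of -2.94 (SE 0.94, edgeR adjusted p = 0.632). Without colon WT 1 these values were -1.58 for Ighv1-80 and -1.85 for Ighv1-64. On the other side, the lowest p values were those of Ighv8-12 (0.42, SE 1.02), Ighv5-9 (0.29, SE 1.07) and Ighv1-55 (0.24, SE 1.12), whose libraries overlapped and whose sign turned when single libraries were left out. Ighv8-12 was at 1.96 CPM in colon KO 1 and at 0.0653 and 0.362 in the other KO libraries.

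In LPMC, negative and positive values were more mixed. By edgeR's quasi-likelihood test 0 of 94 segments were called, with 0.0103% of all 19426 genes tested called. DESeq2 left 24 of 110 segments without an adjusted p and called 7 of the 110 (0.0895% of all 31293 genes fitted). These 7 were Ighv1-49, Ighv1-69, Ighv1-42, Ighv1-50, Ighv2-3 and Ighv8-5, which were lower, and Ighv4-1, which was higher. The median log2 fold change was -0.99, against 0.00 over all genes, with 60 values below 0 (50.8% of all genes) and 34 above, from -7.35 to 5.15. At an unadjusted p under 0.05, 20 segments were lower in KO (1.44% of all genes tested) and 2 were higher (1.20%). All KO libraries lay below all WT libraries in 14 segments (4.26% of all genes) and above them in 2 (3.51%). The number at an unadjusted p under 0.05 was 10 lower (1.33% of all genes) and 7 higher without LPMC KO 1. Without LPMC KO 2 it was 9 lower (1.16% of all genes). The median moved to -0.26 without LPMC WT 1, to -0.51 without LPMC WT 2 and to -2.47 without LPMC KO 3.

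Ighv1-49, a rarely used segment with all 50-base words unique, had the lowest p. Its counts were 123, 130 and 90 in the LPMC WT libraries and 6, 0 and 3 in the KO libraries, or 1.17, 1.31 and 1.76 CPM against 0.0436, 0 and 0.0395. The groups were far apart in every library, and the log2 fold change was -5.53 (SE 0.72, edgeR adjusted p = 0.751). It held at most 0.104% of V reads in LPMC, and outside LPMC it had reads in colon WT 1 alone (32 counts). Left-out libraries moved its value between -6.08 and -5.03. In DESeq2 its adjusted p was 8.18e-15, and in edgeR without the filter on low counts it was 0.0495.

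Ighv1-69 was at 19.2, 31.8 and 44.0 CPM in LPMC WT and at 0.567, 1.57 and 3.28 in LPMC KO, a log2 fold change of -4.14 (SE 0.72, edgeR adjusted p = 0.998). Ighv8-5 was at 25.2, 2.20 and 4.14 CPM in WT and at 0.131, 0 and 0.0395 in KO, a log2 fold change of -7.35 (SE 1.48, edgeR adjusted p = 0.998). In colon Ighv8-5 had 60 counts in KO 3 and at most 8 in each of the other libraries, so the low values in LPMC KO were not seen in colon KO 3. Both segments are close to a neighbour in sequence: Ighv1-69 is 98% identical to Ighv1-59 over the last 200 bases and Ighv8-5 is 95.5% identical to Ighv8-8.

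Ighv4-1, the sole gene of its family, was the highest-ranked segment in the other direction. It was at 6.12, 2.12 and 8.57 CPM in LPMC WT and at 73.7, 17.5 and 18.9 in LPMC KO, a log2 fold change of 2.71 (SE 0.77, edgeR adjusted p = 0.998). The groups did not overlap, and LPMC KO 1 was far above the other KO libraries; without it the value was 1.71. Ighv3-5 was at 1.10, 0.101 and 2.73 CPM in WT and at 5.27, 8.49 and 16.3 in KO (2.96, SE 1.08, edgeR adjusted p = 0.998), also without overlap. Ighv15-2 was at 8.89 CPM in LPMC KO 1 and between 0.156 and 0.364 in the other 5 LPMC libraries. Its log2 fold change of 3.63 (SE 1.54, edgeR adjusted p = 0.998) was 0.14 without that library.

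**Figure D3:**
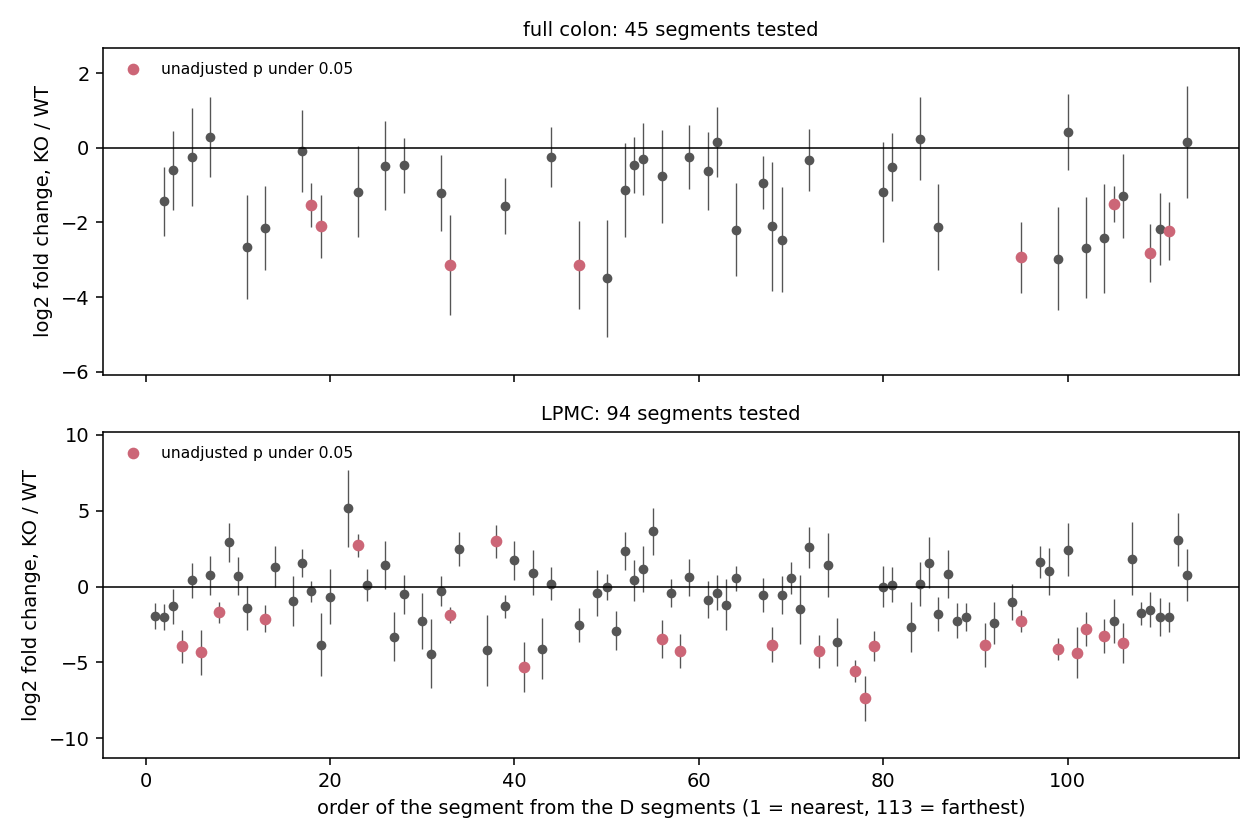
Log2 fold change KO/WT (points, bars are the standard error) for the 45 segments tested in colon (top) and 94 in LPMC (bottom), by their order along the locus from the D segments. Larger red points have an unadjusted p under 0.05, which holds for 8 segments lower in KO in colon and for 20 lower and 2 higher in LPMC. None passed adjustment over all genes in the edgeR fit shown, while DESeq2 called 7 of 110 in LPMC.

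Ighv1-64 was the sole segment whose KO libraries lay below all WT libraries in both tissues, out of 7 such segments in colon and 14 in LPMC. It is 1 of the 45 segments tested in both tissues, where 0.593% of the 18059 genes tested in both behaved so. In LPMC it was at 282, 95.0 and 162 CPM in WT and at 13.1, 27.7 and 71.2 in KO, a log2 fold change of -2.26 (SE 0.72, edgeR adjusted p = 0.998). Its share of V reads was 4.04, 5.42 and 2.81% in colon WT, 1.04, 0.791 and 1.52% in colon KO, 5.61, 1.96 and 8.35% in LPMC WT and 1.95, 1.75 and 1.36% in LPMC KO. The shares did not overlap either, although in LPMC the lowest WT and the highest KO share were nearly equal. Whether a colon and an LPMC library come from the same mouse is not given, so the tissues cannot be counted as independent. In its sequence 66.6% of words are unique, and its nearest member, Ighv1-62-3, is 96.5% identical.

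The edgeR test of whether the KO effect differed between tissues called 0 of 94 segments (0% of all 20989 genes tested were called). DESeq2 called 0 of 111 (0.00873% of all genes), with 13 of the 111 left without an adjusted p. The edgeR filter was passed by 49 of the 94 segments that were too low to be tested in colon alone, and so through their LPMC counts. At an unadjusted p under 0.05 there were 5 segments with a more positive KO effect in LPMC (2.69% of all genes) and 1 with a more negative one (2.01%). Without colon WT 1 there were 2 of each (3.27% of all genes more negative), and the median difference turned from 0.59 to -0.74. Without LPMC KO 3 there were 5 and 7 (1.78% of all genes more negative), with a median of -0.40. The lowest p belonged to Ighv8-5 (-8.58, SE 2.19), followed by Ighv3-5 (6.22, SE 1.75), Ighv14-4 (6.88, SE 1.96) and Ighv5-12 (5.07, SE 1.86), each with an edgeR adjusted p of 0.902. None of these 4 was tested in colon alone. Ighv14-4 was at 3.31, 1.28 and 8.88 CPM in LPMC KO and at 0.524, 1.79 and 0.0779 in LPMC WT, while in colon it had reads in all 3 WT libraries (24, 10 and 2 counts) and 2 counts in all KO libraries together. Ighv1-9 (-2.76, SE 1.74) and Ighv1-71 (-3.34, SE 2.12) were the next on the negative side. The Ighv1-71 value rests on LPMC WT 2, with 4363 of the segment's 4886 counts, and Ighv1-71 can hardly be told from Ighv1-62-2.

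By family, Ighv1 had the highest share in every library. With 46.9% of the segments, it held 47.6 to 63.8% of V reads in colon and 59.0 to 66.2% in 5 LPMC libraries, but 29.4% in LPMC KO 1. In that library Ighv5 held 23.7%, Ighv4 10.7%, Ighv6 8.69% and Ighv10 7.55%. Ighv5 was at 6.82, 5.38 and 3.78% in LPMC WT and at 23.7, 11 and 7.86% in LPMC KO, a difference of 8.87 percentage points without overlap between groups (exact permutation p = 0.1, the smallest possible). In colon Ighv5 was at 8.29, 8.02 and 9.83% in WT and 9.08, 19.9 and 13.6% in KO, a difference of 5.47 points (exact permutation p = 0.2). Ighv7 was at 2.91, 2.55 and 5.82% in LPMC WT and at 1.63, 2.04 and 2.18% in LPMC KO, a difference of -1.81 points (exact permutation p = 0.1). Over the 16 families compared, the exact permutation p values adjusted by the Benjamini-Hochberg method were 0.640 or more in LPMC and 1 in colon, and 0.560 or more between tissues. Without LPMC KO 1 the Ighv5 difference was 4.12 points, still without overlap.

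The other families kept to smaller shares. Ighv3 held 1.87 to 10.4% in colon and 2.84 to 13.6% in LPMC, Ighv2 held 1.35 to 5.58% and 1.29 to 7.21%, Ighv9 held 0.913 to 5.40% and 2.81 to 4.55%, Ighv8 held 2.35 to 8.76% and 0.569 to 6.08%, and Ighv14 held 2.54 to 6.11% and 0.617 to 5.56%. Ighv6 was at 12.6% in colon KO 2 and at 1.12 to 3.31% in the other colon libraries, all of it from Ighv6-3 in that library. Ighv11, Ighv12, Ighv13, Ighv15 and Ighv16 stayed at or below 1.50% in every library, and Ighv16 had reads in LPMC KO 3 alone. The 37 segments nearest the D segments supplied 45.8% in LPMC KO 1, against 17.4 to 25.0% in the other LPMC libraries and 21.5 to 27.7% in colon. Of the families in that part of the locus, Ighv5 (23.7%) and Ighv4 (10.7%) were highest in LPMC KO 1 among LPMC libraries. Ighv7 (1.63%) was lowest there, and Ighv2 (5.69%) and Ighv14 (1.11%) lay within the range of the other LPMC libraries. The KO to WT difference of the share of these 37 segments in LPMC was 9.62 points (exact permutation p = 0.2), and 2.10 points without LPMC KO 1.

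**Figure D4:**
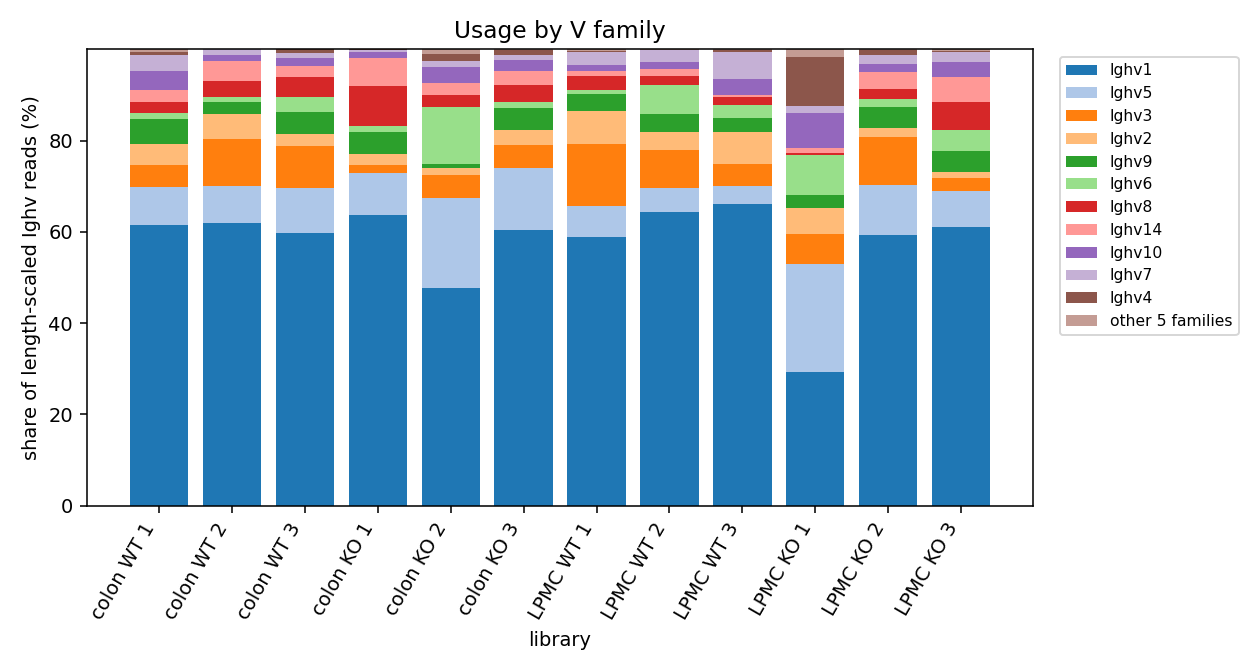
Share of length-scaled heavy chain V reads (%) by V family, stacked for each library. Ighv1 takes 47.6 to 66.2% of every library but LPMC KO 1, where it takes 29.4% and Ighv5 takes 23.7%.

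Genes that assemble and mutate V segments gave no called difference by genotype. Of 20 such genes examined, Rag1, the recombinase subunit that cuts at the segments, had no read in any library, and Rag2 was at most at 0.03 CPM. Neither entered a test. By edgeR, 0 of 17 tested genes were called in colon (0.00518% of all genes) and 0 of 17 in LPMC (0.0103%). The unadjusted p was under 0.05 for 2 genes in colon, both lower in KO (4.47% of all genes), and for 0 genes in LPMC. In colon, log2 fold changes among the genes of lowest p were -0.74 for Nhej1, an end-joining factor, 0.40 for Trp53bp1 and 0.41 for Prkdc. In LPMC the lowest p values were those of Msh6 (0.14), Trp53bp1 (0.20), Dclre1c (0.33) and Prkdc (0.22). For the interaction 0 of 18 were called, with Nhej1 (0.63), Dntt (2.74) and Polh (-0.38) among the genes of lowest p. Between tissues, 7 of 18 were higher in LPMC (25.4% of all genes) and 2 lower (24.9%). Among those higher were Dntt (3.57), which adds bases at the junctions, Trp53bp1 (0.99), Ung (0.73), Prkdc (0.58), Lig4 (0.49) and Pms2 (0.39), and among those lower was Nhej1 (-0.68), in log2 units with edgeR adjusted p up to 0.0438.

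The constant genes were extreme in the libraries that stood apart in their markers. Ighm was at 393 CPM in colon WT 1 and between 3.41 and 11.8 CPM in the rest of colon, and Ighd at 240.2 CPM there and at most at 4.39 CPM in the rest. Igha was at 610, 183 and 308 CPM in colon WT and at 151, 55.3 and 131 in colon KO, without overlap (-1.73, edgeR adjusted p = 0.632, and -1.13 without colon WT 1). In LPMC it was at 17466, 18023 and 6341 CPM in WT and at 2060, 5377 and 17275 in KO, with overlap (-0.75, edgeR adjusted p = 0.998, with -0.28 without LPMC KO 1 and -1.92 without LPMC KO 3). Ighg1 had a log2 fold change of -3.20 in colon and -1.98 in LPMC (edgeR adjusted p = 0.632 and 0.998), and -1.88 in colon without colon WT 1. Ighg2b and Ighg3 were highest in LPMC KO 1 among LPMC libraries, at 151 and 17.8 CPM. By edgeR 0 of 6 tested constant genes passed in colon (0.00518% of all genes) and 0 of 7 in LPMC (0.0103%). Between tissues, 5 of 7 were higher in LPMC than in colon (25.4% of all genes).

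Whole usage profiles were compared by the Bray-Curtis distance, which is 0 for identical shares and 1 when no segment is shared. In colon the mean distance was 0.425 between WT and KO libraries and 0.415 between libraries of one genotype, a difference of 0.0103 (exact one-sided permutation p = 0.2, with 0.1 the smallest possible). In LPMC it was 0.519 between and 0.502 within genotypes, a difference of 0.0163 (exact permutation p = 0.2). Profiles of different genotypes were thus about as far apart as profiles of the same genotype, and the sign of both differences turned when single WT libraries were left out. LPMC libraries were farther from each other (0.512 on average over 15 pairs) than colon libraries were (0.421), although colon rested on far fewer reads. Thinned to 228 counts each, the averages were 0.572 and 0.475.

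Across tissues, each of the 6 colon libraries was nearest to an LPMC library of its own genotype, and none to the LPMC library of its own replicate number. Colon KO 1 and LPMC KO 3 were the closest of the 36 colon to LPMC pairs (0.238): both used Ighv8-12 (7.67 and 5.31%), Ighv1-39 (6.70 and 5.73%) and Ighv1-77 (2.60 and 6.10%) more than most libraries. Colon KO 3 was nearest to LPMC KO 2 (0.327), and Ighv1-55 was at 7.08 and 10.4% in these. Colon KO 2 was nearest to LPMC KO 3 (0.453) and next to LPMC KO 1 (0.487), with which it shared high Ighv6-3 (12.6 and 7.60%) and Ighv5-6 (10.4 and 8.74%). Colon WT 1 was nearest to LPMC WT 3 (0.334), and colon WT 2 and colon WT 3 to LPMC WT 1 (0.341 and 0.319). LPMC WT 1 and colon WT 3 held the highest shares of Ighv3-8 (5.60 and 3.75%).

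Libraries of the same genotype and number were 0.472 apart on average. That is the highest mean among the 36 ways of pairing the colon with the LPMC libraries within genotype. The lowest mean, 0.350, was that of the arrangement that puts colon libraries 1, 2 and 3 with LPMC libraries 3, 1 and 2 in both genotypes. When every library was thinned to 228 counts, the same-number pairing was again the highest (0.525), and colon libraries kept the same nearest LPMC libraries. Over all genes, in contrast, deviations from the group mean correlated between same-numbered colon and LPMC libraries with r of 0.135, 0.0807 and 0.163 in WT and 0.0640, 0.303 and 0.182 in KO, across genes, which are not independent replicates. For the arrangement with the lowest V usage distance, r was -0.0464, 0.0496 and 0.0252 in WT and 0.191, -0.130 and -0.257 in KO. V usage and all genes together, the segments among them, thus paired most libraries differently. For colon KO 1 both pointed to LPMC KO 3 (r of 0.191, against 0.0640 for its own number). The labels do not say what a shared number means. The tests above do not use the numbers.

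**Figure D5:**
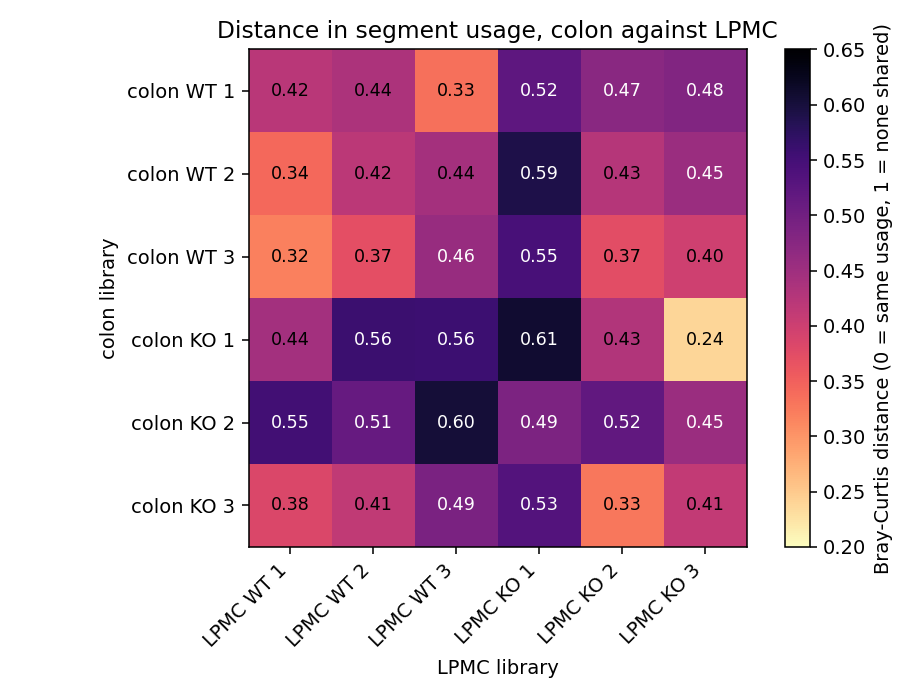
Bray-Curtis distance in segment usage (0 same usage, 1 none shared; colour and printed value) between each colon library (rows) and each LPMC library (columns). The lightest cell of every row lies in the columns of the row's own genotype, and the lowest value is 0.24 for colon KO 1 with LPMC KO 3.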

How the data were processed

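The authors deposited raw counts for 12 libraries in 1 table with Ensembl gene identifiers and no normalization. STAR and the build GRCm38 (mm10) are named, per the submitters' processing notes, and a stranded TruSeq mRNA kit, per the labels' protocols. How reads were counted, with which annotation and strand setting, and what was done with reads that fit several segments is not given in the sources used here, nor is any step for hypermutated reads or for the joins to D and J segments. Even values made up 79.3% of Ighv counts from 1 to 20, the pattern of mates of a pair counted as 2 reads, which makes the true counting error larger than the counts imply. Thinning drew counts singly, so thinned libraries need not hold equal numbers of read pairs.

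Of 54109 identifiers, 54042 matched GENCODE M21, which gave symbols, types, coordinates and sequences (per segment, the longest transcript that reaches the 3′ end of the gene). All genes were fitted with edgeR 4.0.16 in R 4.3.3 on the deposited counts (TMM factors, filterByExpr with a minimum count of 10, quasi-likelihood F-test, Benjamini-Hochberg adjustment over all genes tested). KO was compared with WT on the 6 libraries of a tissue, and the interaction and LPMC against colon on all 12. The standard error is the size of the log2 fold change divided by the square root of F. DESeq2 1.42.0 was an alternative, with no filter before the fit and its default filtering after it. Genes that this left without an adjusted p stay in its totals. Shares, evenness and distances were computed in Python 3.11.15 from counts per kb of exon and tested with exact permutations over libraries. On simulated counts with 100 genes changed 2-fold and 100 changed 4-fold, edgeR recovered 0 of the 2-fold changes for colon, 16 for LPMC, 0 for the interaction and 37 for LPMC against colon. Of the 4-fold changes it recovered 37 for colon (19303 genes, 6 false calls), 53 for LPMC (19426 genes, 6 false calls), 27 for the interaction (20989 genes, 2 false calls) and 64 for LPMC against colon (20989 genes, 4 false calls). The changed genes were drawn at random from all genes tested, so these rates are not those of the Ighv segments. The median SE of the segments was 1.07 in colon and 1.25 in LPMC, in log2 units.

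Segments were named by rule: the 3 highest shares of each library, the 5 highest mean shares of each tissue, and in each comparison up to 10 called segments per direction or, with fewer than 3, the 3 of lowest p. Of the recombination genes, called members and the 4 of lowest p were named, except some that are not reported here. Ighv1-43, Ighv1-62-2, Ighv1-62-3, Ighv1-72, Ighv2-7, Ighv1-16 and the segments called by DESeq2 were named after their values were seen. The members and all lists were chosen with earlier results of these data known. Alternatives were another scaling, no filter, plain counts, thinning, pseudogenes added, other indices, a block for replicate number and leaving out each library, which for Igha and Ighg1 was added after the data were seen.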

Additional observations from a re-analysis of the deposited data

How the results depend on the processing

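Over the 11 main results and their alternatives, direction and call held in 80 recomputations without 1 library and 47 others, and the exceptions follow. LPMC segments called between genotypes were 0 by edgeR, 1 without the filter on low counts and 7 by DESeq2; the 1 is Ighv1-49. The distance between minus within genotypes ranged from -0.0297 to 0.0553 in colon and from -0.0207 to 0.0432 in LPMC when libraries were left out in turn, and it turned negative without colon WT replicate 1 (-0.0297), colon WT replicate 2 (-0.0119), LPMC WT replicate 2 (-0.00254) and LPMC WT replicate 3 (-0.0207). Leaving out libraries gave 0 calls between genotypes in either tissue and 88 to 92 between tissues, totals differing by -1.85 to -0.43 in colon and -1.80 to -0.33 in LPMC (log2), and evenness by -0.0807 to -0.0395 in colon, -0.0527 to -0.0150 in LPMC and -0.0322 to -0.000943 between tissues. Between tissues, 89 segments were called without the filter and 85 by DESeq2. In colon, leaving out libraries moved Ighv8-12 from -1.41 (without KO replicate 1) to 0.95, Ighv5-9 from -0.42 (without KO replicate 1, and -0.20 without WT replicate 3) to 1.46, and Ighv1-55 from -0.36 (without KO replicate 3, and -0.16 without WT replicate 2) to 1.13. The Ighv1 share difference in colon moved from -7.06 to 1.02 points (without KO replicate 2), and that of the 37 segments nearest the D segments from -0.112 (without WT replicate 3) to 3.06 points; these left-out values were added after the data were seen. The cause of these changes was not tested.

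Replicate numbers did not pair WT with KO libraries: deviations of same-numbered libraries correlated with r of 0.0416, -0.133 and -0.0932 in colon and 0.240, -0.0603 and -0.230 in LPMC. With the number as a block, 0 segments were called between genotypes in colon, 0 in LPMC and 0 for the interaction, and 89 between tissues. Totals differed by -1.35 in colon and -1.02 in LPMC and evenness by -0.0636 and -0.0370, with exact permutation p within the block of 0.25, 0.5, 0.25 and 0.25. Under the block, Ighv8-12 was -0.39 and Ighv1-55 was -0.35 in colon.

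The 228 V counts of colon KO replicate 2 limit every colon share, and 68 segments could not be tested in colon. Groups of 3 cannot reach an exact p under 0.1.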
